A study of Sus scrofa with 33 samples.

Results

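The genes described are 6 that code for proteins of the Z-disc, the intercalated disc and the shuttle between these structures and the nucleus of heart muscle cells: XIRP1, NRAP, ANKRD1, FHL1, FHL2 and LMCD1. They were measured in the right ventricle of pigs whose pulmonary artery had been banded. A probe set was taken as theirs where the platform annotation gave it 1 of these symbols and no other, which found 8 probe sets, 1 each for XIRP1, NRAP, FHL1 and FHL2, and 2 each for ANKRD1 and LMCD1. They are 6 of the 6765 genes that had such a probe set, among 23999 probe sets tested. The 6 were chosen on values of these same arrays. The sources used here do not name the contrast; it is taken to be the change from baseline to 120 min of banding, which is therefore given as a description, with no p-value for the 6. Whether the later changes and the differences between the arms also had a part in the choice is not known, and their tests are to be read with that limit. Where a gene had 2 probe sets, the one with the higher mean over all arrays stands for it and the other is shown beside it.

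LIM domains are small zinc-binding folds with which proteins hold on to other proteins rather than to DNA. The FHL proteins, built almost wholly of LIM domains, sit at titin in the sarcomere and can also act as co-factors of transcription. NRAP and LMCD1 carry LIM domains as well, whereas ANKRD1 is an ankyrin repeat protein and XIRP1 a Xin repeat protein that binds actin. In heart muscle the protein products of several of these genes are known to change place or abundance when the muscle is stretched or loaded. No strain was measured in the data used here, so "strain-responsive" is what the genes are known for and not a measurement.

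Biopsies came from the free wall of the right ventricle of 11 pigs, 3 from each, and every biopsy was hybridised to 1 array. The first was the baseline, the next followed 120 min of pulmonary banding to bring on right ventricular failure, and the last followed a further 60 min. Pigs were randomised after failure into a control arm of 5, in which the last 60 min were banding alone, and a shunt arm of 6, in which they were banding with a modified Glenn shunt, a surgical connection that leads venous blood from the upper body past the right ventricle. All 11 pigs were banded and no unbanded pig was biopsied over the same hours, so a change between biopsies holds everything that happened in between. Age, sex and breed were not given in the sources used here. Each value is a log2 signal, on which a difference of 1 is a 2-fold change, and values are compared within a probe set and never between genes. Arrays hold no read depth; the number of pigs limits the precision.

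The 11 measured markers of ventricular cardiomyocytes, of 13 listed, were at a summed log2 signal of 17.5 to 17.7 in all 6 groups of arm and biopsy, which is what the tissue label says. In bulk biopsies, fewer cells of a type and less RNA per cell cannot be told apart. Spiked-in controls split the arrays into 3 sets that follow the pigs. The control bioB was at 5.76 to 6.11 in shunt pigs 5 and 6, at 7.99 to 8.45 in shunt pigs 1 to 4 and at 8.74 to 9.91 in the control pigs, and dap, at 3.09 to 3.37, was low in shunt pigs 1 to 4 alone. No set held pigs of both arms, so arm and array set cannot be told apart in any comparison of the arms. As a measure of RNA quality, the 3' minus the 5' signal of GAPDH had group means of 0.76 to 0.86. No baseline value of the 6 genes was flagged by the outlier criterion given at the end. The baseline biopsy of shunt pig 4 was high for some of them and not for others. From the top of 11 it ranked 2 for LMCD1, 4 for FHL1 and NRAP and 8 for FHL2. It was the highest of 11 for ANKRD1 and XIRP1, and also for 6 of 6 early stress genes looked up after the data were seen, among them ATF3 at 12.4 against 10.7 in the next pig and FOS at 12.6 against 11.8. The mean change of each gene at 120 min is therefore also given without this pig, on the probe set that stands for the gene. So are the differences between the arms in that change. How many of all probe sets were highest in this biopsy was not counted.

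Over the 11 pigs, XIRP1, LMCD1, NRAP, ANKRD1 and FHL1 were higher at 120 min than at baseline and FHL2 was lower. The mean change was 2.50 ± 0.19 for XIRP1 (SE, n = 11), or 5.68-fold, 1.99 ± 0.26 for LMCD1, or 3.97-fold, and 1.09 ± 0.12 for NRAP, or 2.12-fold. It was smaller for ANKRD1, at 0.77 ± 0.07 or 1.70-fold, and for FHL1, at 0.69 ± 0.06 or 1.61-fold. FHL2 fell by 0.54 ± 0.08, or 1.46-fold. So 5 genes lay past an adjusted p of 0.05 in limma in the higher direction, as did 11.6% of all probe sets, and 1 in the lower direction, as did 17.4%. These counts follow from the way the genes were chosen, and nothing is read from them. In 4 of the 6 the sign was the same in all 11 pigs, which 9.83% of all probe sets showed. In 3 (XIRP1, ANKRD1 and LMCD1) the 11 baseline values lay wholly below the 11 values at 120 min. Such a gap, in either direction, was seen in 1.26% of all probe sets. Both counts follow from the choice of the genes too, and nothing is read from them. Without shunt pig 4 the mean changes were 2.60 for XIRP1, 1.88 for LMCD1, 1.04 for NRAP, 0.77 for ANKRD1, 0.64 for FHL1 and -0.51 for FHL2. For single genes, overlap within an arm and the sign in every pig at the last biopsy are given below. Those patterns were not counted over all probe sets and are a description.

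**Figure D1:**
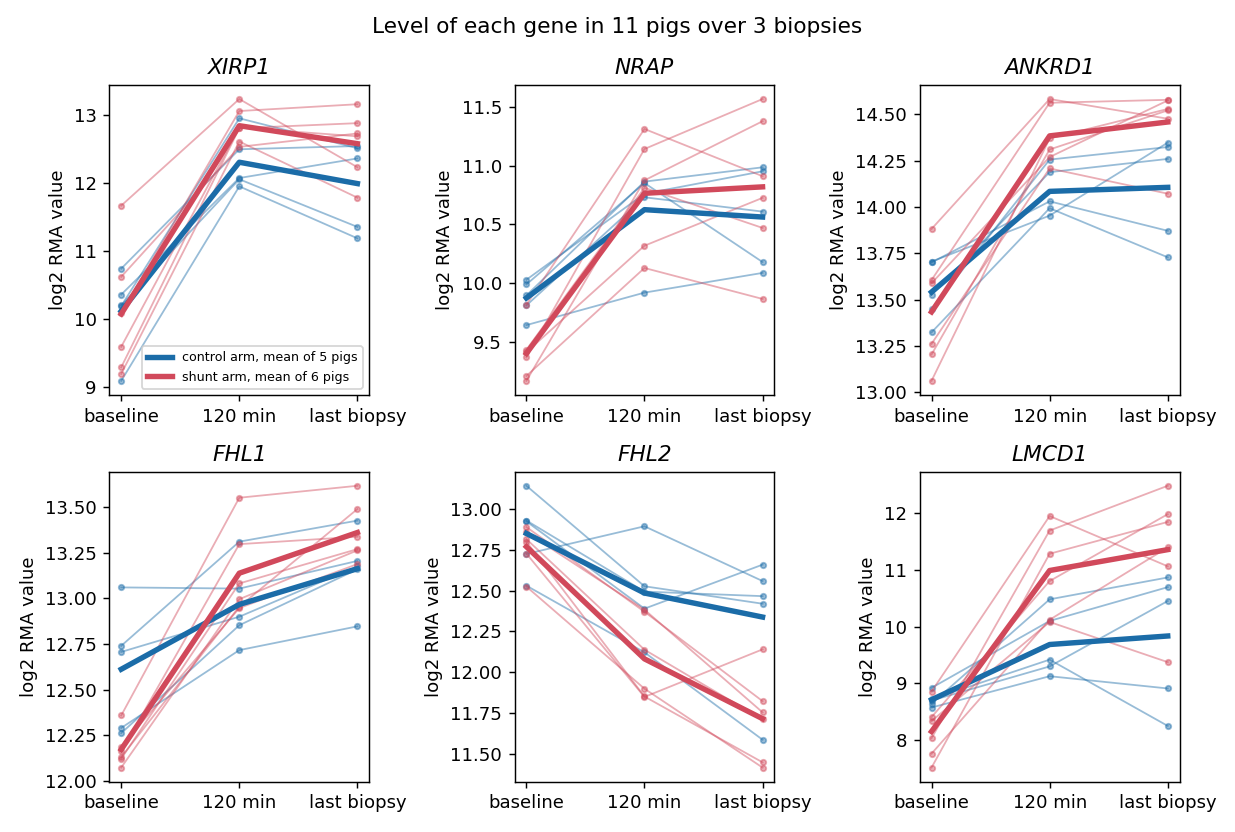
Log2 signal (vertical axes, a separate scale for each gene) at baseline, 120 min and the last biopsy for the 6 genes. Thin lines are the 5 control pigs (blue) and the 6 shunt pigs (red) and thick lines the arm means. The means of 5 genes climb to 120 min and that of FHL2 runs downwards. From 120 min to the last biopsy FHL1 alone is higher in all 11 pigs, a pattern not counted over all probe sets.

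XIRP1 codes for Xin, which binds and bundles actin filaments where the myofibrils meet the intercalated disc. At baseline its log2 signal in control pigs 1 to 5 was 10.20, 10.75, 10.37, 9.10 and 10.21, and in the 6 shunt pigs it ran from 9.20 to 11.67 with a median of 9.85. After 120 min the control pigs stood at 12.96, 12.50, 12.08, 11.96 and 12.06, and the shunt pigs between 12.54 and 13.24 (median 12.82). In the last biopsy the control values were 12.52, 12.55, 12.37, 11.19 and 11.36, and the shunt values 11.79 to 13.17 (median 12.71). Within each arm, no baseline value reached any later value of that arm. The baseline was where pigs differed most: the SD over the 11 pigs was 0.77 then, 0.43 at 120 min and 0.63 at the end. Shunt pig 4, which began at 11.67, had the smallest change at 120 min, 1.57, and shunt pig 6 the largest, 3.52. By group mean, both arms at baseline (control 10.12 ± 0.61, n = 5; shunt 10.08 ± 0.94, n = 6; SD) came below the control arm at the end (11.999 ± 0.66), the control arm at 120 min (12.31 ± 0.42), the shunt arm at the end (12.59 ± 0.49) and the shunt arm at 120 min (12.85 ± 0.27), and the 4 upper groups overlapped one another.

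NRAP, the nebulin-related anchoring protein, ties the ends of the myofibrils to the membrane at the intercalated disc and takes part in the assembly of new myofibrils. Its baseline log2 signal was 9.90, 10.03, 9.81, 9.64 and 9.99 in control pigs 1 to 5 and 9.17 to 9.82 in the shunt pigs (median 9.39). At 120 min it was 10.86, 10.76, 10.73, 9.92 and 10.85 in the control arm and 10.13 to 11.31 in the shunt arm (median 10.84). The last values were 10.99, 10.95, 10.61, 10.09 and 10.18 in the control pigs and 9.87 to 11.57 in the shunt pigs (median 10.82). Every pig was above its own baseline at both later biopsies. Control pig 4 had the smallest change at 120 min, 0.28, and its value there fell within the range of the control baselines. The largest was that of shunt pig 3, at 1.77. In order of group mean the levels were shunt baseline (9.40 ± 0.23, SD), control baseline (9.87 ± 0.15), control end (10.56 ± 0.42), control at 120 min (10.63 ± 0.40), shunt at 120 min (10.77 ± 0.46) and shunt end (10.82 ± 0.62). The ranges of both baselines overlapped, and so did those of all 4 later groups.

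ANKRD1 codes for CARP, the cardiac ankyrin repeat protein, which binds titin in the sarcomere and is also found in the nucleus. The probe set with the higher mean read 13.45, 13.52, 13.70, 13.32 and 13.70 at baseline in the control pigs and 13.06 to 13.88 (median 13.42) in the shunt pigs. At 120 min it read 14.26, 14.19, 13.95, 13.99 and 14.03 in the control pigs and 14.21 to 14.58 (median 14.34) in the shunt pigs. In the last biopsy it read 14.32, 14.26, 14.35, 13.73 and 13.87 against 14.07 to 14.58 (median 14.53). All 11 pigs were above their own baseline at both later biopsies, by 0.25 (control pig 3) to 1.31 (shunt pig 1) at 120 min. This probe set is near the top of the scale: its highest value, 14.58, was 0.62 below the highest value in the whole table, 15.2. The group means were 13.43 ± 0.31 (shunt) and 13.54 ± 0.16 (control) at baseline, 14.08 ± 0.13 and 14.11 ± 0.29 in the control arm at 120 min and at the end, and 14.38 ± 0.16 and 14.46 ± 0.19 in the shunt arm at 120 min and at the end (SD). The ranges of neighbours in this order overlapped except between the control baseline and the control arm at 120 min.

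The other ANKRD1 probe set showed a much larger change. It rested at 10.35, 12.04, 10.30, 9.28 and 9.49 in the control pigs at baseline and at 8.50 to 13.12 (median 9.94) in the shunt pigs. By 120 min it was at 13.22, 12.63, 13.10, 12.42 and 12.91 in the control pigs and 12.80 to 13.10 (median 12.87) in the shunt pigs. The pigs thus began far apart and ended close together, with an SD over 11 pigs of 1.33 at baseline, 0.23 at 120 min and 0.34 at the end. Its mean change of 2.58 ± 0.30 (SE), 5.99-fold, compares with 1.70-fold on the probe set above, and the size of the rise for ANKRD1 therefore depends on the probe set. In shunt pig 4 it went the other way, from 13.12 at baseline to a change of -0.27, while the probe set with the higher mean moved up by 0.70 in that pig.

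**Figure D2:**
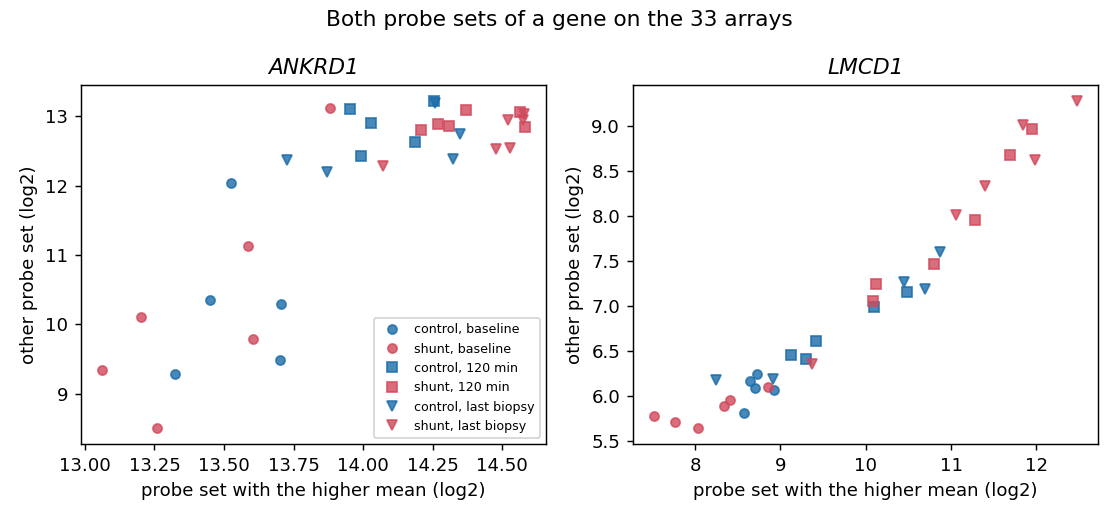
Log2 signal of the second probe set (vertical) against that of the probe set with the higher mean (horizontal) for ANKRD1 and LMCD1 on the 33 arrays, coloured by arm and shaped by biopsy. For LMCD1 the points climb together, and for ANKRD1 the second probe set spans 8.50 to 13.12 at baseline and lies between 12.20 and 13.22 at the later biopsies.

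FHL1 is the main FHL protein of striated muscle and binds titin together with members of the MAP kinase cascade. At baseline it was at 12.71, 12.74, 12.26, 12.29 and 13.06 in control pigs 1 to 5 and at 12.07 to 12.36 (median 12.15) in the shunt pigs. After 120 min it was at 12.90, 13.31, 12.85, 12.72 and 13.05 in the control pigs and at 12.95 to 13.55 (median 13.04) in the shunt pigs. The last biopsy gave 13.18, 13.43, 13.16, 12.85 and 13.21 against 13.19 to 13.62 (median 13.30). In the shunt arm the baseline values lay wholly below both later sets, whereas in the control arm they overlapped both. Control pig 5 had the highest baseline of all pigs and no rise at 120 min (-0.01), and the other 10 pigs were higher by 0.19 to 1.19. Of the genes described, FHL1 alone was higher in the last biopsy than at 120 min in every pig, by 0.04 to 0.54 in 11 of 11. That pattern was not counted over all probe sets and is a description. The later change of FHL1 did not pass in limma in either arm. In order the group means were shunt baseline (12.17 ± 0.10, SD), control baseline (12.61 ± 0.34), control at 120 min (12.97 ± 0.23), shunt at 120 min (13.14 ± 0.24), control end (13.16 ± 0.21) and shunt end (13.36 ± 0.16), and each group overlapped the next.

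FHL2 is the close relative of FHL1 that is most abundant in heart; it binds titin and the metabolic enzymes held there, and holds back calcineurin signalling. Its log2 signal ran the opposite way. The baseline values were 13.14, 12.53, 12.93, 12.72 and 12.92 in the control pigs and 12.52 to 12.89 (median 12.81) in the shunt pigs. At 120 min they were 12.53, 12.12, 12.49, 12.89 and 12.39 in the control pigs and 11.85 to 12.38 (median 12.02) in the shunt pigs, and at the end 12.42, 11.59, 12.47, 12.56 and 12.66 against 11.41 to 12.14 (median 11.73). All 6 shunt pigs were lower at both later biopsies than any of them had been at baseline, a pattern not counted over all probe sets. In the control arm the ranges overlapped, and control pig 4 was 0.17 higher at 120 min than at baseline. Within each of the 11 pigs the change of FHL1 at 120 min exceeded that of FHL2, by 0.26 in control pig 4 to 2.09 in shunt pig 3. Both genes are taken to have been chosen on this change, so this is a description. Other pairs of genes were not counted. From the top, the group means were control baseline (12.85 ± 0.23, SD), shunt baseline (12.77 ± 0.13), control at 120 min (12.48 ± 0.28), control end (12.34 ± 0.43), shunt at 120 min (12.08 ± 0.25) and shunt end (11.71 ± 0.27), with overlap between all neighbours.

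LMCD1, also called dyxin, has LIM and cysteine-rich domains, represses GATA6 and acts with calcineurin in the growth of cardiac muscle. It began at 8.64, 8.92, 8.70, 8.57 and 8.72 in control pigs 1 to 5 and at 7.52 to 8.86 (median 8.19) in the shunt pigs. At 120 min the control pigs stood at 10.48, 10.10, 9.30, 9.13 and 9.42 and the shunt pigs at 10.08 to 11.95 (median 11.04). At the end the control pigs were at 10.86, 10.69, 10.45, 8.91 and 8.25, and the shunt pigs at 9.37 to 12.48 (median 11.62). No baseline value of either arm reached a value at 120 min, but at the end control pig 5 was below its own baseline by 0.47 and control pig 4 within the range of the control baselines. Here the pigs drew apart, with an SD over the 11 of 0.46 at baseline, 0.95 at 120 min and 1.33 at the end. The second LMCD1 probe set gave a change at 120 min of 1.41 ± 0.21 (SE), 2.66-fold, against 3.97-fold, and was higher in all 11 pigs as well. Its signal was low, below the median of the array on 10 of the 33 arrays. The group means of the first probe set were 8.15 ± 0.48 and 8.71 ± 0.13 at baseline in the shunt and control arms, 9.68 ± 0.58 and 9.83 ± 1.18 in the control arm at 120 min and at the end, and 10.99 ± 0.79 and 11.35 ± 1.09 in the shunt arm (SD), and of neighbours in this order only the control baseline and the control arm at 120 min did not overlap.

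Whether the 6 genes moved on after 120 min was tested within each arm; these tests share the arrays at 120 min with the contrast taken to have chosen the genes. None of the 6 passed in limma in the control arm, nor did any probe set (0%), and the same held for the shunt arm (0%). At an unadjusted p under 0.05 there was 1 of 6 in the control arm, against 3.07% of all probe sets, and 2 of 6 in the shunt arm, against 8.94%. The 1 in the control arm was FHL1, with a change of 0.20 ± 0.09 (SE; adjusted p = 1.00; higher in 5 of 5 pigs). In the shunt arm FHL1 changed by 0.22 ± 0.08 (adjusted p = 0.415; higher in 6 of 6 pigs) and FHL2 by -0.37 ± 0.11 (adjusted p = 0.346; lower in 5 of 6). Without shunt pig 4 that value for FHL2 was -0.50 (adjusted p = 0.115).

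The other genes had later changes that were small beside their spread. XIRP1 changed by -0.31 ± 0.28 (SE) in the control arm and -0.26 ± 0.26 in the shunt arm (adjusted p = 1.00 and 0.817), with 2 of 5 and 3 of 6 pigs higher. For NRAP the values were -0.06 ± 0.18 and 0.05 ± 0.16 (adjusted p = 1.00 and 0.951), and for ANKRD1 0.02 ± 0.11 and 0.07 ± 0.10 (adjusted p = 1.00 and 0.881). LMCD1 varied most between pigs, from -1.17 to 1.15 in the control arm and from -0.89 to 1.27 in the shunt arm, around means of 0.15 ± 0.39 and 0.37 ± 0.35 (adjusted p = 1.00 and 0.815).

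**Figure D3:**
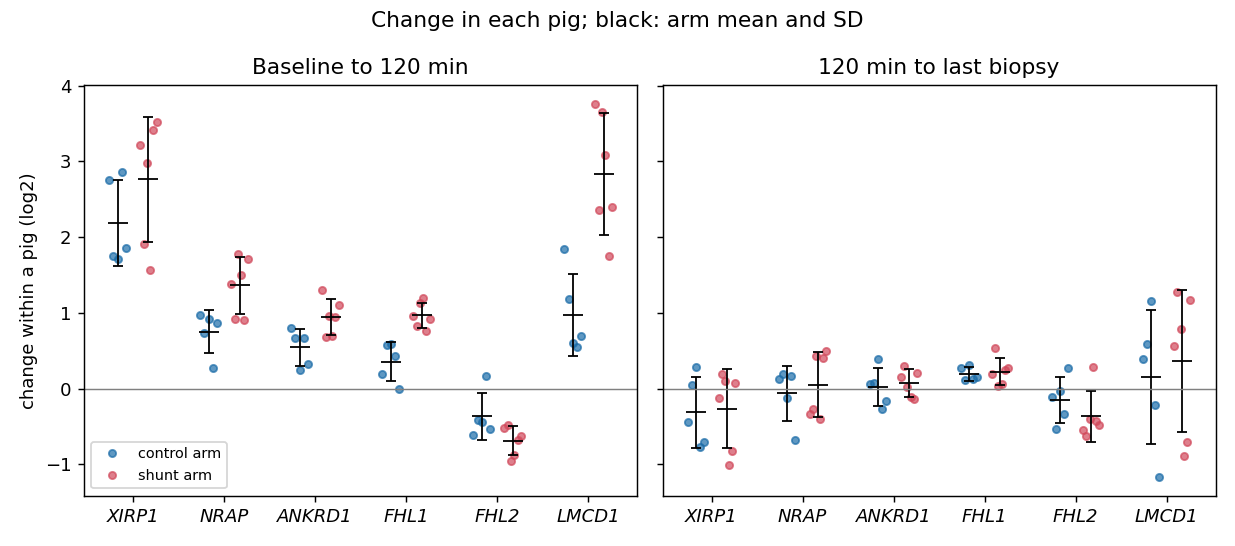
Change of log2 signal within each pig from baseline to 120 min (left) and from 120 min to the last biopsy (right) for the 6 genes; blue points are control pigs, red points shunt pigs, and black bars the mean and SD of an arm. The early changes of XIRP1, NRAP, ANKRD1 and LMCD1 lie above 0 in all 11 pigs and those of FHL1 in 10, and those of FHL2 lie below it in 10. The later ones scatter around 0, with FHL1 above it in all 11, a pattern not counted over all probe sets.

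The question of the design, whether the shunt altered the course after failure, is the difference between the arms in that later change. None of the 6 genes passed in limma, nor did any probe set (0%), and at an unadjusted p under 0.05 there were 0 of 6 against 3.07% of all probe sets. The intervals show what size of difference remained possible. For the shunt minus the control arm they were -0.22 to 0.28 for FHL1 (estimate 0.03), -0.26 to 0.36 for ANKRD1 (0.05), -0.56 to 0.12 for FHL2 (-0.22) and -0.38 to 0.61 for NRAP (0.12). They were wider for XIRP1, at -0.73 to 0.83 (0.05), and for LMCD1, at -0.86 to 1.30 (0.22). All 6 adjusted p-values were 1.00. For FHL2 the estimate was -0.35 ± 0.15 (SE; adjusted p = 0.848) without shunt pig 4 and -0.12 without control pig 5. For LMCD1 a difference of 2-fold in favour of the shunt arm, which is 1 on the log2 scale, lay within the interval.

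The arms had the same treatment up to 120 min, and a comparison of their first change tells how far the pigs differed before the shunt. No gene passed in limma, nor did any probe set (0%), but 4 of the 6 (FHL1, LMCD1, ANKRD1 and NRAP) had an unadjusted p under 0.05, against 6.9% of all probe sets. The change of FHL1 was 0.76 to 1.19 in the shunt pigs and -0.01 to 0.59 in the control pigs, with no overlap, as was the case for 1.01% of all probe sets. The difference, shunt minus control, was 0.61 (95% interval 0.36 to 0.86, adjusted p = 0.203). LMCD1 differed by 1.86 (0.78 to 2.94, adjusted p = 0.441), from 0.55 to 1.84 in the control pigs and 1.75 to 3.76 in the shunt pigs, which overlapped through control pig 1 and shunt pig 5. NRAP differed by 0.61 (0.12 to 1.10, adjusted p = 0.648) and ANKRD1 by 0.41 (0.10 to 0.72, adjusted p = 0.613). The second ANKRD1 probe set, which had the larger rise, differed by 0.03 (-1.23 to 1.29, adjusted p = 0.996), and that interval also holds 0.41. This value includes shunt pig 4, at -0.27, and the median changes were 2.87 in the control arm and 3.02 in the shunt arm. The first ANKRD1 probe set is near the top of the scale. For XIRP1 the difference was 0.58 (-0.20 to 1.36, adjusted p = 0.819) and for FHL2 it was -0.32 (-0.66 to 0.02, adjusted p = 0.743), or -0.19 without control pig 4. Without shunt pig 4 the differences were 0.57 for FHL1, 1.81 for LMCD1, 0.58 for NRAP, 0.46 for ANKRD1, 0.82 for XIRP1 and -0.28 for FHL2. Shunt pigs 1 to 4 and shunt pigs 5 and 6, which are different array sets, had mean changes of 1.03 and 0.84 for FHL1, 3.22 and 2.07 for LMCD1, 1.39 and 1.31 for NRAP, 0.91 and 1.03 for ANKRD1, 2.42 and 3.47 for XIRP1 and -0.71 and -0.65 for FHL2.

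The arms were also compared before any banding. At baseline the shunt pigs were lower than the control pigs by 0.44 for FHL1 (95% interval of the difference -0.72 to -0.16, adjusted p = 0.243), by 0.47 for NRAP (-0.72 to -0.22, adjusted p = 0.167) and by 0.56 for LMCD1 (-0.98 to -0.14, adjusted p = 0.294). These were the 3 of 6 with an unadjusted p under 0.05, against 11.8% of all probe sets, and none of the 6 passed in limma, where 0.0208% of all probe sets did. The differences for ANKRD1 (-0.11, -0.41 to 0.19, adjusted p = 0.814), FHL2 (-0.08, -0.31 to 0.15, adjusted p = 0.818) and XIRP1 (-0.04, -0.93 to 0.85, adjusted p = 0.978) were within their intervals around 0. All 6 genes overlapped between the arms at baseline.

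From baseline to the last biopsy, called the whole course, the mean change of the shunt arm was the larger in size in each of the 6 genes. These changes start from the baseline arrays of that contrast and are given as a description. In the control arm, XIRP1 changed by 1.88 ± 0.28 (SE of the fit, 5 pigs), LMCD1 by 1.12 ± 0.39 and NRAP by 0.69 ± 0.18. ANKRD1 changed by 0.57 ± 0.11, FHL1 by 0.55 ± 0.09 and FHL2 by -0.51 ± 0.12. Of the 6 genes, 4 lay past the threshold in the higher direction (3.5% of all probe sets) and 1 in the lower (5.29%), and LMCD1 did not. That count of 5 was 3 in a fit without the pig block and 3 without control pig 1 or control pig 2, NRAP and FHL2 dropping out each time, 4 without control pig 3, and 6 without control pig 5 or shunt pig 5, where LMCD1 came in. In the shunt arm, LMCD1 changed by 3.20 ± 0.35 (SE of the fit, 6 pigs), 9.20-fold, XIRP1 by 2.50 ± 0.26 and NRAP by 1.42 ± 0.16. FHL1 changed by 1.19 ± 0.08, ANKRD1 by 1.03 ± 0.10 and FHL2 by -1.05 ± 0.11. Of the 6 genes, 5 lay past the threshold in the higher direction (13.3% of all probe sets) and 1 in the lower (19.2%). The SD of the changes of the 6 shunt pigs ran from 0.12 for FHL1 to 1.33 for LMCD1.

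The difference between the arms over the whole course did not pass for any of the 6 in limma, where 0.00417% of all probe sets passed, and 5 of the 6 had an unadjusted p under 0.05, against 12.2%. FHL1 came closest, with a shunt minus control difference of 0.64 (95% interval 0.39 to 0.89, adjusted p = 0.0925). Its whole change was 1.00 to 1.36 in the shunt pigs and 0.15 to 0.90 in the control pigs, again without overlap (0.879% of all probe sets). At 120 min, before the shunt, the difference for FHL1 was already 0.61. Its mean level in the shunt arm was 12.17 against 12.61 in the control arm at baseline, and 13.36 against 13.16 at the end. LMCD1 differed by 2.08 (1.00 to 3.16, adjusted p = 0.142), FHL2 by -0.54 (-0.88 to -0.20, adjusted p = 0.186), ANKRD1 by 0.46 (0.15 to 0.77, adjusted p = 0.211) and NRAP by 0.73 (0.23 to 1.22, adjusted p = 0.213), and XIRP1 by 0.63 (-0.16 to 1.41, adjusted p = 0.541). On the second ANKRD1 probe set the changes were 2.28 in the control arm and 2.38 in the shunt arm, a difference of 0.10 (-1.16 to 1.36, adjusted p = 0.973). This too includes shunt pig 4, at -0.60, and the medians were 2.44 in the control arm and 3.02 in the shunt arm. XIRP1 differed by 1.02 without shunt pig 4 (adjusted p = 0.0793) and by 0.41 without shunt pig 6. Without shunt pig 4, 3 of the 6 passed: FHL1 at 0.62 (adjusted p = 0.0318), LMCD1 at 2.28 (adjusted p = 0.0424) and FHL2 at -0.64 (adjusted p = 0.0427). Without shunt pig 5, FHL1 and LMCD1 passed (adjusted p = 0.0274 for both), and without control pig 3, FHL1 alone (adjusted p = 0.0284). With array quality weights FHL1 (adjusted p = 0.0294) and LMCD1 (adjusted p = 0.0434) passed, and with 1 probe set per gene tested FHL1 did (adjusted p = 0.0466). The share of all probe sets that passed in these other fits was not counted. Their counts are therefore not read as particular to the 6 genes. Shunt pigs 1 to 4 against the control pigs gave 0.69 for FHL1 and 2.53 for LMCD1, and shunt pigs 5 and 6 gave 0.54 and 1.18. The part of the array set in these differences cannot be told apart from that of the arm. For NRAP the mean level in the shunt arm was 9.40 against 9.87 in the control arm at baseline, and 10.82 against 10.56 at the end. For LMCD1 it was 8.15 against 8.71 at baseline and 11.35 against 9.83 at the end.

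**Figure D4:**
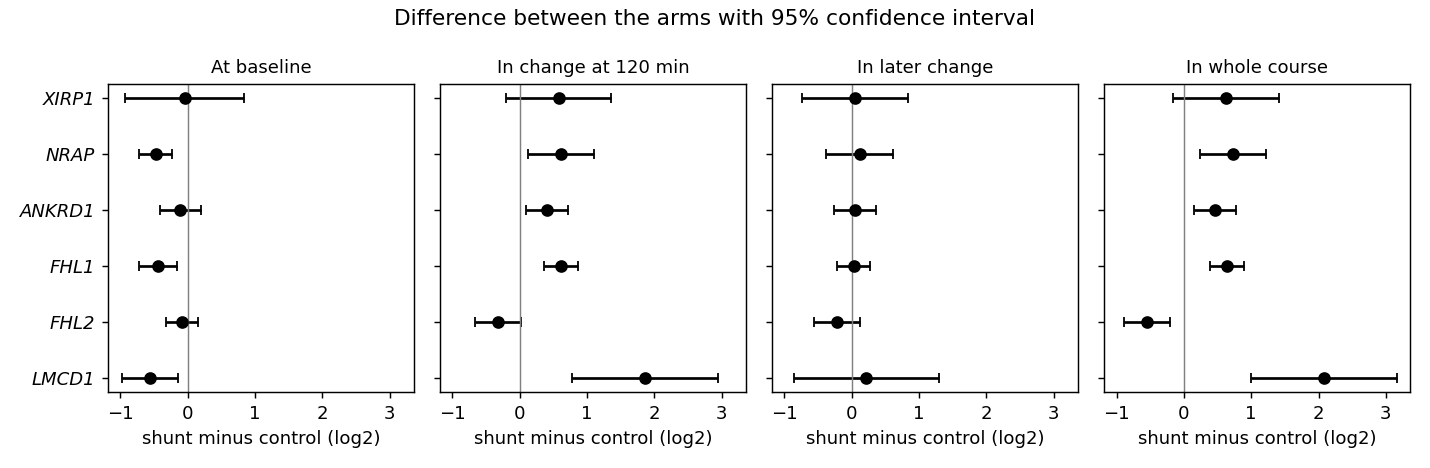
Difference between the arms, shunt minus control, in log2 units for the 6 genes at baseline, in the change at 120 min, in the later change and over the whole course; points are limma estimates and bars 95% intervals. In the later change all 6 intervals include 0, while at 120 min, before the treatments parted, those of FHL1, LMCD1, NRAP and ANKRD1 do not; no adjusted p was under 0.05.

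The genes were also compared with one another over the 33 arrays after each pig's mean was subtracted; the points share pigs and the common change at 120 min, so these correlations are a description. The 10 pairs without FHL2 had r of 0.85 to 0.96, and the 5 pairs with FHL2 had r of -0.90 to -0.82. The mean of each arm and biopsy was then subtracted too. What remained was how far a pig at a biopsy strayed from its own mean and from the course of its arm. On these remainders the ranges were -0.03 to 0.78 and -0.58 to -0.16. The closest pairs were then ANKRD1 with XIRP1 (r = 0.78) and ANKRD1 with LMCD1 (r = 0.72), while FHL1 with XIRP1 was at -0.03. FHL2 ran most against NRAP (r = -0.58) and LMCD1 (r = -0.56).

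Over the same 33 pig-centred arrays, the 3 genes most like each were found among the 6765. Those most like XIRP1 were IER3 (r = 0.99), the matricellular gene CYR61 (0.98) and IFRD1 (0.97). ANKRD1 was followed most closely by TNFRSF12A, the receptor of TWEAK (0.98), GNL3 (0.98) and the EGF receptor ligand AREG (0.97), and LMCD1 by MAPRE1 (0.97), PUM3 (0.96) and AREG (0.96). FHL1 ran with the cold-shock gene RBM3 (0.96), SPECC1 (0.95) and GNL3 (0.95), and NRAP with GRAMD2B (0.94), LONRF3 (0.94) and the small heat shock protein CRYAB (0.94). The genes most like FHL2 were TCEA3, LMO4 and PPTC7 (0.95 each), of which LMO4 codes for a LIM-only protein.

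Genes related to the 6 were followed at 120 min as well. Among the family relatives, 7 of 12 listed were measured, and 3 rose and 1 fell, with a median change of 0.28; over all 6765 genes 887 rose and 1404 fell, with a median of -0.02. The risers were CSRP2, a LIM-only protein of muscle (0.60 ± 0.19, SE), XIRP2, the relative of XIRP1 (0.52 ± 0.16), and FHL3, the relative of FHL1 and FHL2 (0.36 ± 0.06). TES, a LIM protein of focal adhesions, fell by 0.32 ± 0.07. CSRP1 (0.11 ± 0.06), NEB (0.28 ± 0.28) and NEBL (-0.06 ± 0.08), the nebulins to which NRAP is related, did not pass. No gene of this list or of the lists that follow passed in the later change of either arm or in a difference between the arms.

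Structural partners sit at the Z-disc and at the intercalated disc. Of 11 measured Z-disc and titin-associated genes, of 24 listed, 4 rose and 0 fell (median 0.10): PDLIM3, the actinin-associated LIM protein, by 1.41 ± 0.14, MYOT by 0.40 ± 0.10, TRIM55 by 0.27 ± 0.07 and MYOZ1 by 0.17 ± 0.06. Titin itself, TTN, was at -0.05 ± 0.05 and alpha-actinin, ACTN2, at -0.03 ± 0.05, neither past the threshold. Of 15 measured genes of the intercalated disc and costamere, of 24 listed, 1 rose and 0 fell (median 0.02). That one was the integrin ITGB1, by 0.22 ± 0.06, while the desmosomal DSP (-0.21 ± 0.10), the intermediate filament DES (0.21 ± 0.11), LIMS2 (-0.22 ± 0.08) and the gap junction gene GJA1 (0.03 ± 0.11) did not pass. Both measured LIM genes of focal adhesions, of 12 listed, did not pass either (LIMA1 at 0.08 ± 0.07 and ABLIM1 at -0.03 ± 0.07).

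Factors and targets of SRF, MRTF, YAP and TEAD, which carry signals of tension to the genome, had 11 measured of 21 listed, and 5 rose and 0 fell (median 0.17). CYR61, a target of YAP, rose by 3.17 ± 0.27 (SE), CNN1 by 1.14 ± 0.12, TEAD4 by 0.64 ± 0.07, MYH9 by 0.50 ± 0.09 and TAGLN by 0.61 ± 0.16. Among partners of calcineurin, NFAT and GATA, the setting in which LMCD1 and FHL2 are known to act, 8 of 16 were measured, and 1 rose and 4 fell (median -0.14). RCAN1, the calcineurin inhibitor that calcineurin itself induces, rose by 1.15 ± 0.20. The calcineurin subunit PPP3CB fell by 0.35 ± 0.06, MEF2A by 0.29 ± 0.07, GATA4 by 0.28 ± 0.09 and MEF2D by 0.17 ± 0.06.

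**Figure D5:**
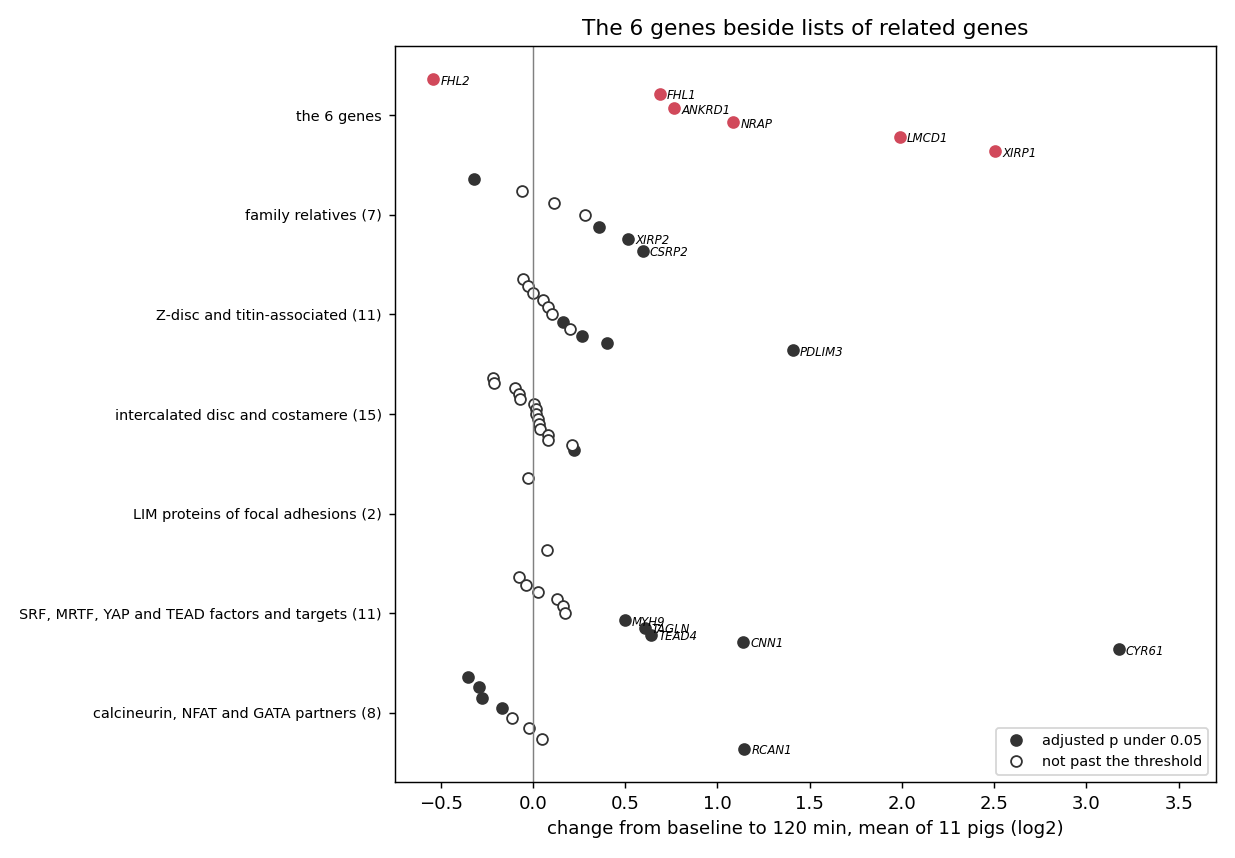
Mean change from baseline to 120 min in log2 units (horizontal axis, 11 pigs) of the 6 genes in red and of the measured genes of 6 related lists in black; filled points are past an adjusted p of 0.05 in limma. The red points are shown for their size only, since the 6 genes are taken to have been chosen on this change; among the related genes, PDLIM3, CNN1, RCAN1 and CYR61 lie farthest to the right.

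Markers of the cell types in a biopsy were set beside these changes. Of 11 measured cardiomyocyte markers 0 passed at 120 min in limma in either direction, nor did any reach an unadjusted p under 0.05, and their median change was -0.05. Of 11 measured leukocyte markers 4 rose (S100A9 by 1.38 ± 0.29, CD163 by 0.74 ± 0.10, TYROBP by 0.42 ± 0.13 and CD14 by 0.23 ± 0.08) and 1 fell (CD8A by 0.50 ± 0.11). The other leukocyte markers did not pass. The median change of all 11 was 0.23. Their summed log2 level had group means of 9.90, 10.1 and 10.3 over the 3 biopsies in the control arm and 9.83, 10.7 and 11.0 in the shunt arm. Of 6 smooth muscle and pericyte markers 2 rose (CNN1 and TAGLN, which are also in the SRF list above) and 1 fell, of 7 endothelial markers 1 rose and 2 fell, of 6 fibroblast markers 1 rose and 1 fell, and of 4 adipocyte markers 1 rose and 1 fell. No erythrocyte or skeletal muscle marker passed in limma, of 4 measured in each, and 3 and 0 of them had an unadjusted p under 0.05. Over the whole course in the shunt arm 6 of 11 leukocyte markers rose and 0 fell, led by S100A9 (3.48 ± 0.39), and 2 of 11 cardiomyocyte markers fell, CKM by 0.22 ± 0.06 and TNNT2 by 0.21 ± 0.06; in the control arm 2 leukocyte markers rose and 1 fell, and 0 of 11 cardiomyocyte markers passed in limma or had an unadjusted p under 0.05. Between the arms no marker of these 3 cell types passed in limma, and over the whole course 7 leukocyte, 3 erythrocyte and 1 cardiomyocyte markers had an unadjusted p under 0.05. The median difference, shunt minus control, was 0.48 for leukocyte and 0.99 for erythrocyte markers in the change at 120 min, and 0.55 and 1.49 over the whole course, against -0.04 and -0.11 for cardiomyocyte markers. The part of other cell types in the changes of the 6 genes, and in their differences between the arms, was not tested.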

How the data were processed

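RNA of 33 right ventricular biopsies was measured on Affymetrix porcine arrays, 1 biopsy per array. The authors deposited 1 log2 value per probe set and array, made with RMA per the submitters' processing notes. Not given in the sources used here are the software, its version and the batch of arrays taken through it. Quantile normalisation, part of RMA, sets the arrays to one distribution, so a shift shared by most genes would not show. Values were used as deposited. The 124 control sets among the 24123 were not tested.

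Changes were fitted to all arrays with limma 3.58.1 in R 4.3.3, using lmFit and eBayes, with pig as a fixed block and, in each arm, coefficients for both later biopsies (18 residual degrees of freedom). The arms at baseline were compared on 11 arrays. Two-sided p-values were corrected by Benjamini-Hochberg across 23999 probe sets (threshold 0.05). Each pig counted as 1 replicate. Every SE is the moderated SE of these fits and not the SE of the pigs of 1 group alone. The labels pair the biopsies by pig; with group means removed, arrays of the same pig had a median r of 0.39 and 28 of 33 were closest to their own pig.

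The 6 genes and the lists were chosen with earlier results of these data known. Named besides the 6 are all measured family relatives, up to 4 genes per list with the smallest p at 120 min, and the 3 genes most like each by r; TAGLN, MEF2D, TTN, ACTN2, GJA1, cell type markers and the 6 stress genes were added after the values were seen. No genome build and no sequence were used. The fits were tested on simulated data. Alternatives were other scalings, no pig block or a random one (statmod 1.5.0), trended variance, the lowest 30% of probe sets left out, array weights, 1 probe set or the mean per gene, each array set alone, and each pig left out.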

Additional observations from a re-analysis of the deposited data

Results flagged for a closer look

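In 5 instances 1 pig stood apart from the others of its group by Dixon's 95% criterion for groups of 5 and 6, which chance alone meets in about 1 in 20 groups. It was applied to each of the 6 genes in each arm, at every biopsy and for the change at 120 min and the later change. With that many groups a few flags may come from chance, and some of the flagged values share a biopsy. ANKRD1 in the last biopsy of the shunt arm was lowest in pig 5, at 14.07. FHL2 in the last biopsy of the control arm was lowest in pig 2, at 11.59. The change of FHL2 at 120 min in the control arm was highest in pig 4, at 0.17, the only value above 0 among the 11 pigs. The later change of FHL2 in the shunt arm was highest in pig 4, at 0.29, where the other 5 shunt pigs were below 0. NRAP at 120 min in the control arm was lowest in pig 4, at 9.92.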

How the results depend on the processing

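Of the values of the 6 genes under 25 alternatives, 1107 kept their direction and side of the threshold, 11 dropped below it, 12 passed it and 28 changed sign. Counts at 120 min follow from the choice of the genes and say nothing of stability, nor do those of the whole course within an arm, of which the count of 5 in the control arm was 3 with no replicate block and 3 to 6 with 1 pig left out. The count of 0 for the whole-course difference between arms was 2 with array weights (FHL1, LMCD1), 1 with 1 probe set per gene and 1 with the mean of probe sets (both FHL1), and 0 to 3 with 1 pig left out. The share of all probe sets past the threshold was not counted under the alternatives. The replicate block changed no other count. Sign changes were confined to small values that never passed: in the later control change ANKRD1 was -0.038 and LMCD1 -0.028 with array weights, and ANKRD1 -0.13 with the mean of probe sets; in the later shunt change ANKRD1 was -0.070 with that mean and NRAP -0.15 in shunt pigs 1 to 4; against control, shunt pigs 1 to 4 gave -0.083 for NRAP later and 0.37 for XIRP1 at baseline, and shunt pigs 5 and 6 gave -0.062 for XIRP1 later. With 1 pig left out, the later change in the control arm was -0.071 to 0.093 for ANKRD1, -0.10 to 0.48 for LMCD1 and -0.13 to 0.090 for NRAP, and in the shunt arm -0.035 to 0.15 for NRAP. The difference between arms in it was -0.019 to 0.15 for ANKRD1, -0.035 to 0.063 for FHL1, -0.11 to 0.47 for LMCD1, -0.035 to 0.21 for NRAP and -0.063 to 0.20 for XIRP1, and XIRP1 at baseline differed by -0.36 to 0.13. Causes were not tested. Signal limits the second LMCD1 probe set, near the array median, and the first ANKRD1 probe set, near the top of the scale.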

Other observations

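The 6 genes did not rank the pigs alike. At 120 min shunt pig 1 had the largest change of the 11 pigs for ANKRD1 (1.31) and LMCD1 (3.76), shunt pig 3 for NRAP (1.77), shunt pig 4 for FHL1 (1.19) and shunt pig 6 for XIRP1 (3.52). Control pig 4 had the smallest for NRAP (0.28) and LMCD1 (0.55) and a change of 2.86 for XIRP1, the largest of the control arm.

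In the baseline biopsy of shunt pig 4 the second ANKRD1 probe set read 13.12, against 12.04 in the next pig and a median of 9.94 in the others, and XIRP1 read 11.67 against 10.75. FHL1, FHL2 and NRAP of the same biopsy ranked 4, 8 and 4 from the top of 11. CYR61 read 12.1 there against 10.4 in the next pig, IER3 11.4 against 10.3, EGR1 11.99 against 11.50 and PTX3 8.77 against 7.60. The next pig for CYR61 was shunt pig 2, whose second ANKRD1 probe set, at 11.13, was the third highest.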
